A study of Homo sapiens with 2 samples.

Results

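The genes described are those of the switch that starts the cell cycle in G1: the D cyclins CCND1, CCND2 and CCND3, their kinases CDK4 and CDK6, the inhibitors CDKN1B, CDKN1C, CDKN2C and CDKN2D, and RB1, the protein that the kinases act on. They were picked by gene symbol in the authors' deposited table, which holds a single row for each of these 10 genes among 60586 genes listed, and all 10 are among the 18870 genes tested. RNA of 2 established human leukaemia lines was sequenced. K562 comes from a chronic myeloid leukaemia in blast crisis and carries the BCR-ABL1 fusion, and its label gives the cell type as erythrocyte, although it is a leukaemia line and not a red cell. MOLT4 comes from a T cell acute lymphoblastic leukaemia and is labelled T lymphoblast. Both lines were untreated and were kept at 37 °C and 5% CO2 in DMEM medium, with serum at 10% and antibiotics at 1%, and RNA came from a single flask per line. The table holds 1 value per gene and line, and 1 sample is listed per line although the design text states 3 biological replicates, so there is no replicate spread to set beside a difference, and every q-value quoted comes from the authors.

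D cyclins are made in answer to growth signals and switch on CDK4 or CDK6. The active kinases phosphorylate the retinoblastoma protein, which then releases E2F transcription factors to switch on genes of DNA replication. INK4 proteins such as CDKN2C and CDKN2D bind CDK4 and CDK6 and keep D cyclins off them, whereas CIP/KIP proteins such as CDKN1B and CDKN1C bind cyclin and kinase together and mainly block CDK2. In blood cells CDK6 and CCND3 are used from early progenitors on, and developing T cells depend on CCND3.

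Levels are in FPKM, fragments scaled to transcript length and library size, so that levels of different genes within a line can be set side by side. Where a pair of levels is given without naming the lines, MOLT4 comes first. How many reads lie behind the levels is unknown. The levels come from bulk RNA, so the share of cells that express a gene and the RNA per cell cannot be told apart. The whole table sums to 627392 FPKM for MOLT4 and 676421 FPKM for K562. Lineage markers matched the labels in both lines. Summed over 7 erythroid markers the level was 744 FPKM in K562 but 2.80 FPKM in MOLT4, where GATA1, HBZ, ALAS2 and RHAG were listed at 0. EPOR made up most of the MOLT4 sum, at 2.61 FPKM. Summed over 8 T cell markers the level was 2687 FPKM in MOLT4 but 35.4 FPKM in K562, where DNTT and CD1B were listed at 0. CD3D made up most of the K562 sum, at 29.7 FPKM. The T cell marker LCK was at 250 FPKM in MOLT4 and at 0.0480 FPKM in K562, yet its q was 0.0833 in the authors' deposited table.

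The 2 lines differed in which D cyclins and which kinase were abundant. MOLT4 had CCND3 as almost its only D cyclin transcript and more CDK6 than CDK4. K562 had all 3 D cyclins above 10 FPKM and little CDK6 beside CDK4. Calls follow the deposited q (Cuffdiff with Benjamini-Hochberg adjustment over all tested genes), taken at 0.05 or less. Of the 10 genes, 5 were called higher in MOLT4 (CCND3, CDK6, CDKN1B, CDKN2D and RB1), 3 were called higher in K562 (CCND1, CCND2 and CDKN1C), and CDK4 and CDKN2C were not called. Of all tested genes 42.2% were called, 18.8% toward MOLT4 and 23.4% toward K562. Among the 14103 tested genes at a mean of 1 FPKM or more, which all 10 genes reach, these shares were 46.0%, 20.8% and 25.3%. The median of log2((MOLT4 + 1)/(K562 + 1)) was 0.45 over the 10 genes and -0.06 over all 14118 genes at that level. Adding 1 FPKM to both levels shrinks the ratios of genes at low levels.

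**Figure D1:**
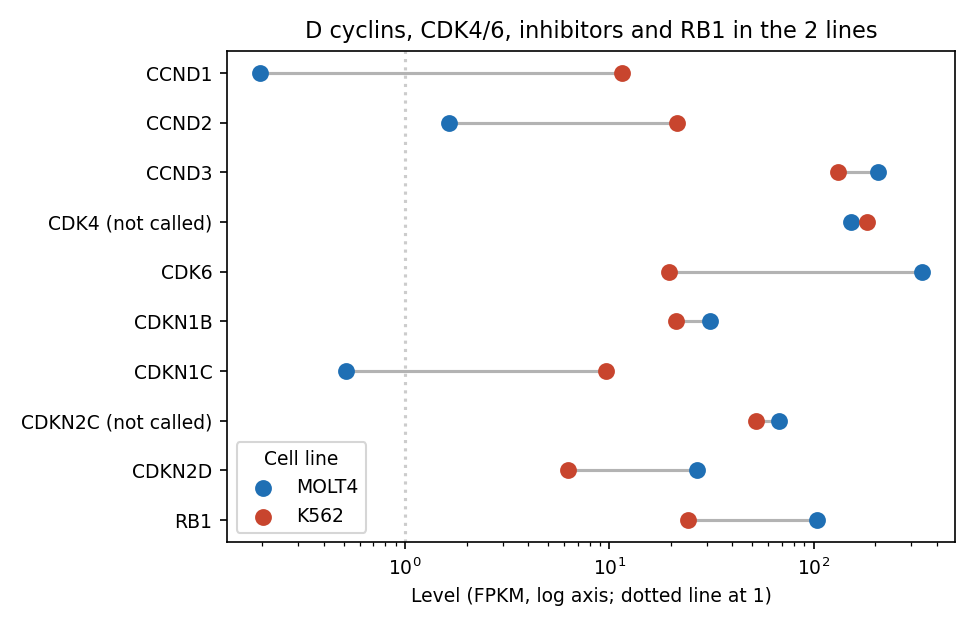
Level of each of the 10 genes in FPKM (log axis) in MOLT4 (blue) and K562 (red), 1 point per gene and line, with a grey line joining the lines and a dotted line at 1 FPKM. CCND1, CCND2, CDKN1C and CDK6 have the longest joining lines, and CDK4 and CDKN2C, which were not called, are among the shortest.

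CCND3 (ENSG00000112576.12, chromosome 6, 41934933 to 42050357, minus strand; positions here and below are of GENCODE release 29 on GRCh38) was the leading D cyclin of both lines. It was at 208 FPKM in MOLT4 and at 131 FPKM in K562 in the authors' deposited table, 1.58-fold higher in MOLT4 (q = 0.000391). At these levels it stood above 96.8% of the genes at 1 FPKM or more in MOLT4 and above 93.8% of them in K562. CCND2 (ENSG00000118971.8, chromosome 12, 4273772 to 4305350, plus strand), a D cyclin used widely in lymphocytes and stem cells, went the other way. It was at 1.64 FPKM in MOLT4 and at 21.3 FPKM in K562, 13.0-fold higher in K562 (q = 0.000203 in the authors' deposited table). CCND1 (ENSG00000110092.3, chromosome 11, 69641087 to 69654474, plus strand), the D cyclin of epithelial cells and of mantle cell lymphoma, was at 0.195 FPKM in MOLT4 and at 11.5 FPKM in K562. Its fold of 59.0 toward K562 (q = 0.000916 in the authors' deposited table) rests on a MOLT4 level under 1 FPKM. Thus CCND1 and CCND2 lay on the opposite side from CCND3.

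Added together, the D cyclins differed less than their parts. Their summed level was 209 FPKM in MOLT4 and came to 164 FPKM in K562, a ratio of 1.28. CCND3 supplied 99.1% of the sum in MOLT4, with CCND2 at 0.784% and CCND1 at 0.0933%. In K562 CCND3 supplied 80.0%, CCND2 13.0% and CCND1 7.03%. Without CCND3 the ratio of the sums was 0.0559, because the remaining pair is higher in K562.

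CDK6 (ENSG00000105810.9, chromosome 7, 92604921 to 92836594, minus strand), the D cyclin kinase of many blood cells, was at 338 FPKM in MOLT4 and at 19.5 FPKM in K562. It was 17.3-fold higher in MOLT4 (q = 0.000203 in the authors' deposited table) and was the most abundant of the 10 genes there, above 98.1% of the genes at 1 FPKM or more. CDK4 (ENSG00000135446.17, chromosome 12, 57747727 to 57756013, minus strand), its close relative, was at 153 FPKM in MOLT4 and at 183 FPKM in K562 and did not pass the threshold (q = 0.428 in the authors' deposited table), with a fold of 1.20 toward K562. CDK4 was the most abundant of the 10 genes in K562, above 96.1% of the genes at 1 FPKM or more. CDK6 was thus at 2.21 times the level of CDK4 in MOLT4, whereas CDK4 was at 9.37 times the level of CDK6 in K562. The summed kinase level was 491 FPKM in MOLT4 and 203 FPKM in K562, a ratio of 2.42, of which CDK6 supplied 68.9% and 9.64%. Without CDK6 the ratio is that of CDK4, 0.835. Per FPKM of summed D cyclins there were 2.34 FPKM of kinases in MOLT4 and 1.24 FPKM in K562.

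**Figure D2:**
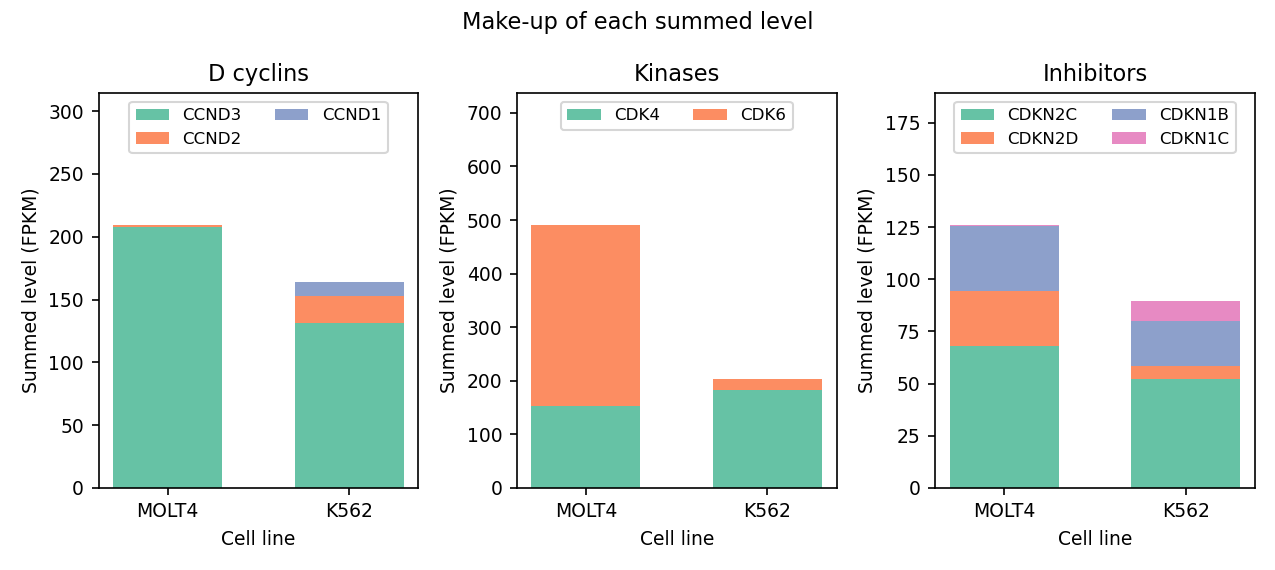
Summed FPKM of the 3 D cyclins (left), of CDK4 and CDK6 (middle) and of the 4 inhibitors (right) in each line, with each gene's part in its own colour; the vertical scales differ between panels. CCND3 fills 99.1% of the MOLT4 bar and 80.0% of the K562 bar, and CDK6 fills 68.9% and 9.64% of the kinase bars.

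The start regions of the kinases are shown because CDK6 had the largest fold toward MOLT4 among the 10 genes and CDK4 was not called, and because a second transcript begins beside CDK6 (described below). The windows hold 250 bases before and 50 after an annotated start, from RefSeq on GRCh38.p14, each read 5′ to 3′ on the gene's own strand, with CACGTG in capitals. CACGTG is an E box, the site read by MYC and MAX and by other factors of that class.
CDK6, chr7:92836524-92836823, minus strand: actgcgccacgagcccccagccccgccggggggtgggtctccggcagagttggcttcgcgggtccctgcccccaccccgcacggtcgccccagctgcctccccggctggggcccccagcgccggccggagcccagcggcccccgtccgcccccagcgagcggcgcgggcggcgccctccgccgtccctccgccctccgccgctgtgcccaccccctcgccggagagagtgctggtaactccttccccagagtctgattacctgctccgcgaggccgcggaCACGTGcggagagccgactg
CDK4, chr12:57752261-57752560, minus strand: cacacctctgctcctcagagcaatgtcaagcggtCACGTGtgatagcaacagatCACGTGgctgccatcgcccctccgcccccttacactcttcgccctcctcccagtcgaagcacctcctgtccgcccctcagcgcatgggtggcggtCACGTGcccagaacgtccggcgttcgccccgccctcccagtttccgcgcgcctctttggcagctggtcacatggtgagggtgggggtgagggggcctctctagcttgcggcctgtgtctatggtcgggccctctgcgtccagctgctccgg
The CDK4 window holds 3 E boxes, whose first bases lie 216, 196 and 101 bases before the start. The CDK6 window shown holds 1, whose first base lies 30 bases after the start, and a second CDK6 window, 2.63 kb into the gene and not shown, holds none. CACGTG, which reads the same on both strands, occurs in 7.26% of the 35116 windows of this length in the table. It is in 4 of the 12 windows of 7 of the 10 genes (CDK4, CDK6 and CDKN2C), while CCND1, CCND2 and CDKN1C have no entry. GGGCGG, a GC box, occurs on either strand in 45.0% of all windows and in 8 of the 12. The E2F site letters TTTCCCGC and TTTGGCGC, searched on both strands, occur in 1.63% and 0.652% of all windows and in none of the 12. The single RB1 window lies at a start 173 kb inside the gene, so the region at its outermost annotated start was not searched. The same holds for CDK4, whose window shown lies at a start 3.70 kb inside the gene. It also holds for CDKN1B (2.31 kb) and CCND3 (1.67 kb for its outermost window). These are matches of letters, not measured binding.

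The INK4 genes were higher in MOLT4 or not called. CDKN2D (ENSG00000129355.7, chromosome 19, 10566462 to 10569059, minus strand), which encodes p19, was at 26.8 FPKM in MOLT4 and at 6.29 FPKM in K562. It was 4.26-fold higher in MOLT4 (q = 0.000203 in the authors' deposited table). CDKN2C (ENSG00000123080.12, chromosome 1, 50960745 to 50974633, plus strand), which encodes p18, was at 67.7 FPKM in MOLT4 and at 52.3 FPKM in K562 and did not pass the threshold (q = 0.133 in the authors' deposited table). CDKN2C was the most abundant of the 4 inhibitors in both lines, with 53.8% of their summed level in MOLT4 and 58.5% in K562. The other INK4 genes, CDKN2A and CDKN2B, were listed at 0.0332 and 0.0278 FPKM in MOLT4 and at 0 in K562, and the authors did not test them. These genes lie on chromosome 9 in a single deposited locus. CDKN2C and CDKN2D therefore supplied nearly all INK4 transcript listed in either line.

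CDKN1B and CDKN1C differed in opposite directions, and the level of CDKN1A was higher in K562. CDKN1B (ENSG00000111276.11, chromosome 12, 12715058 to 12722371, plus strand), which encodes p27, was at 31.0 FPKM in MOLT4 and at 21.2 FPKM in K562, 1.46-fold higher in MOLT4 (q = 0.0176 in the authors' deposited table). CDKN1C (ENSG00000129757.13, chromosome 11, 2883213 to 2885773, minus strand), an imprinted gene that encodes p57, was at 0.512 FPKM in MOLT4 and at 9.60 FPKM in K562. Its fold of 18.7 toward K562 (q = 0.000203 in the authors' deposited table) rests on a MOLT4 level under 1 FPKM. Their sum was 31.5 FPKM in MOLT4 and came to 30.8 FPKM in K562, with CDKN1C at 1.63% of it in MOLT4 and 31.2% in K562. CDKN1A, the third CIP/KIP gene, which encodes the p53 target p21, was at 0.892 FPKM in MOLT4 and at 17.8 FPKM in K562, 20.0-fold higher in K562 (q = 0.000203 in the authors' deposited table). With it the CIP/KIP sum was 32.4 FPKM in MOLT4 and came to 48.6 FPKM in K562. The summed level of CDKN2C and CDKN2D was 94.5 FPKM in MOLT4 and 58.5 FPKM in K562, above the sum of CDKN1B and CDKN1C in both lines. The 4 inhibitors together were at 126 FPKM in MOLT4 and at 89.3 FPKM in K562, a ratio of 1.41.

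RB1 (ENSG00000139687.15, chromosome 13, 48303726 to 48599436, plus strand), the longest of the 10 genes with an annotated span of 296 kb, was at 103 FPKM in MOLT4 and at 24.4 FPKM in K562. It was 4.24-fold higher in MOLT4 (q = 0.000203 in the authors' deposited table). Its relatives RBL1 and RBL2, pocket proteins that bind E2F4 and E2F5, were also called higher in MOLT4. RBL1 was at 29.9 and 15.8 FPKM (q = 0.00889 in the authors' deposited table) and RBL2 at 30.6 and 17.0 FPKM (q = 0.00204). In K562 the 3 pocket protein genes thus lay between 15.8 and 24.4 FPKM, while in MOLT4 RB1 stood above its relatives.

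Further genes of the G1/S pathway were read from 8 lists. They hold 62 genes, of which 59 were at a mean of 1 FPKM or more. Of these, 20 were called higher in MOLT4, 12 were called higher in K562 and 27 were not called, with a median log2 ratio of 0.30. The share called was 54.2%, beside 46.0% of all tested genes at that level. Of 10 E2F and DP factors, 6 were called toward MOLT4 and 1 toward K562, where all genes gave 20.8% and 25.3% (median log2 ratio 0.82). TFDP2, a DP partner of E2F proteins, was at 279 FPKM in MOLT4 and at 78.6 FPKM in K562, and E2F6 at 12.1 and 23.5 FPKM (q = 0.000203 for each in the authors' deposited table). Of 16 E2F target genes of DNA replication and nucleotide supply, 5 were called higher in MOLT4, 2 higher in K562 and 9 were not called, so that 43.8% were called, near the share of all genes (median 0.43). PCNA, the sliding clamp, had the largest difference toward MOLT4 among the called targets, and TK1, thymidine kinase, was at 18.8 FPKM in MOLT4 and at 87.5 FPKM in K562 (q = 0.000203 in the authors' deposited table).

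The kinase step after CDK4 and CDK6 had a single called gene. That is 20% of its measured genes, beside 46.0% of all tested genes at a mean of 1 FPKM or more. Of 5 measured genes of the cyclin E, cyclin A and CDK2 module, CCNE2 was called, at 54.7 FPKM in MOLT4 and at 19.5 FPKM in K562 (q = 0.000203 in the authors' deposited table). CCNE1 was at 28.5 and 25.6 FPKM, CCNA2 at 115 and 114 FPKM, CDK2 at 114 and 85.1 FPKM and the phosphatase gene CDC25A at 33.0 and 26.6 FPKM, none of them called. CCNA1, the germline cyclin A, was at most at 0.0583 FPKM. The CDK activating kinase phosphorylates CDK4, CDK6 and CDK2. Of its 3 genes, 2 were called, both toward K562, where 25.3% of all such genes were called. Lists of 3 or 5 genes are too short to be set apart from these shares. CDK7 was at 20.7 FPKM in MOLT4 and at 43.4 FPKM in K562 (q = 0.000203 in the authors' deposited table) and CCNH at 35.2 and 80.1 FPKM (q = 0.00339), while MNAT1 was at 43.5 and 39.4 FPKM and was not called.

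Of 15 genes for the turnover of D cyclins and p27, 3 were called higher in MOLT4, 5 higher in K562 and 7 were not called. The share called was 53.3% (median -0.04), beside 46.0% of all tested genes at a mean of 1 FPKM or more. By direction, all such genes gave 20.8% toward MOLT4 and 25.3% toward K562. FBXW7, a substrate adaptor of the SCF ubiquitin ligase that targets cyclin E, was at 26.6 FPKM in MOLT4 and at 11.1 FPKM in K562. It is counted among the 3 calls toward MOLT4, although cyclin E is neither a D cyclin nor p27. USP2, a deubiquitinase of cyclin D1, was at 0.517 FPKM in MOLT4 and at 8.76 FPKM in K562 (q = 0.000203 for FBXW7 and for USP2 in the authors' deposited table). The DREAM complex represses cell cycle genes with the pocket proteins RBL1 or RBL2, and its MuvB core activates such genes with the partners MYBL2 and FOXM1. Of 7 genes of core and partners, 3 were called toward MOLT4 and 1 toward K562, 57.1% in all (median 0.80), beside the same 46.0%. The calls toward MOLT4 were both partners and the core gene LIN52. Within the core, LIN9 was called toward K562, and LIN37, LIN54 and RBBP4 were not called. FOXM1, an activator of mitotic genes, was at 68.5 and 26.0 FPKM (q = 0.000916 in the authors' deposited table) and LIN9, a core subunit, at 9.32 and 16.9 FPKM (q = 0.000203).

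**Figure D3:**
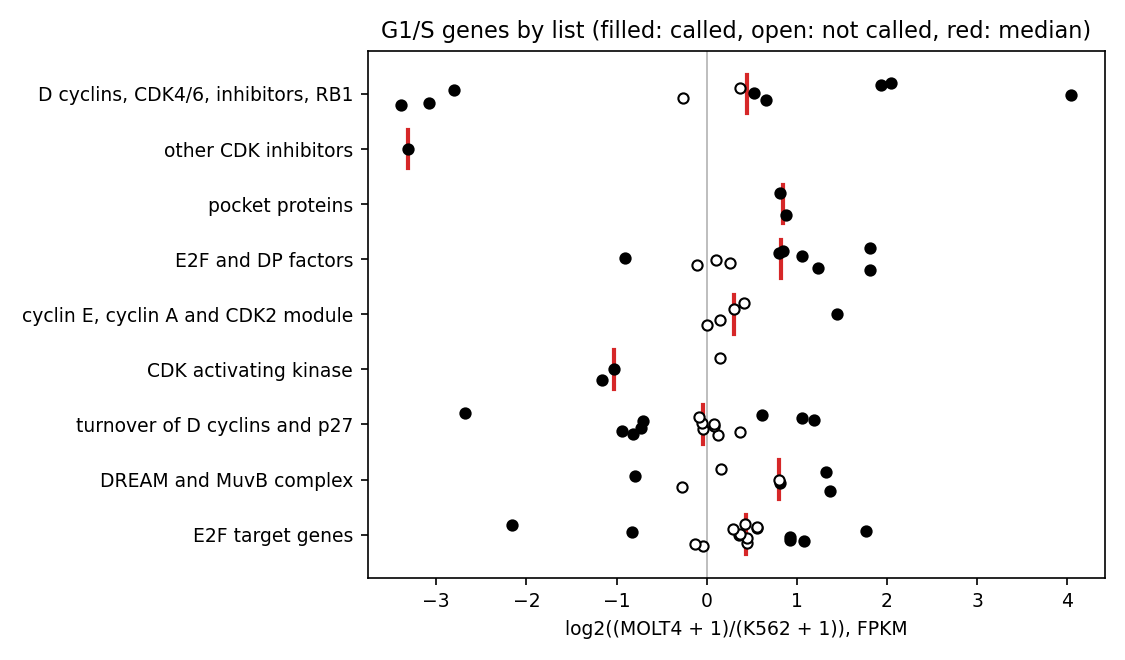
log2((MOLT4 + 1)/(K562 + 1)) of each measured gene of the 10 described genes (top row) and of 8 further G1/S lists, with called genes filled, other genes open and the list median as a red bar. The top row spans from -3.39 for CCND1 to 4.04 for CDK6.

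The surroundings of the 10 genes were read from genes whose deposited locus lay within 100 kb of the deposited locus of 1 of the 10. A deposited locus can span several genes, so some neighbours lie more than 100 kb from the described gene itself. Among these are GATAD1, C12orf4, TOMM6, FRS3, AL365205.1, B4GALNT1, ARHGEF25 and CDC37. There were 52 such genes at 1 FPKM or more in a line, with 13 called toward MOLT4 and 11 toward K562. These calls make up 46.2% of them, near the 46.0% of all tested genes at that level. The sources used here do not say whether reads were counted by strand, so reads from overlapping genes on opposite strands cannot be told apart. The neighbour with the largest log2 ratio after adding 1 FPKM was AC002454.1, an antisense RNA gene that starts at the CDK6 start and runs away from it (chromosome 7, 92836483 to 92917187, plus strand). It overlaps CDK6 by 112 bases, 81 of them exonic in both, which is 0.661% of the exonic bases of CDK6. AC002454.1 itself has 667 exonic bases, so the shared bases are a larger part of it than of CDK6. AC002454.1 was at 358 FPKM in MOLT4 and at 1.01 FPKM in K562 (q = 0.000391 in the authors' deposited table), so it and CDK6 were both called higher in MOLT4. On the other side of CDK6, FAM133B was called higher in MOLT4, at 46.2 and 26.0 FPKM (q = 0.000203 in the authors' deposited table). GATAD1, farther out, was called higher in K562, with 20.2 FPKM there and 5.19 FPKM in MOLT4. RBM48 was at 8.66 and 6.38 FPKM and AC000065.1 at 1.45 and 0.00363 FPKM, neither of them called.

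Near RB1, 3 of 4 genes at 1 FPKM or more in a line were called higher in MOLT4. Of all tested genes at that level 20.7% were called in this direction, and 4 genes are too few to be set apart from that share. LPAR6, a receptor gene inside the RB1 span on the opposite strand, was at 45.0 FPKM in MOLT4 and at 0.0614 FPKM in K562. RCBTB2, also on the opposite strand within the annotated span, was at 70.1 and 1.38 FPKM, and ITM2B, which lies before RB1, was at 228 and 85.1 FPKM (q = 0.000203 for each of these 3 in the authors' deposited table). LPAR6 and RCBTB2 share no exonic base with RB1 in the annotation. CYSLTR2 was at 1.20 and 0.00500 FPKM and was not called.

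Around the D cyclins, neighbours lay on either side. TIGAR, a protein-coding gene downstream of CCND2, was at 6.30 FPKM in MOLT4 and at 0.331 FPKM in K562 (q = 0.0125 in the authors' deposited table), opposite to CCND2. C12orf4 was at 11.7 and 11.8 FPKM and AC006122.1 at 1.76 FPKM and listed at 0, neither called. Under 1 FPKM in both lines, and named after its values were seen, AC008012.1 overlaps the whole CCND2 span on the same strand, at 0.822 FPKM in MOLT4 beside 1.64 FPKM for CCND2 itself, and at 0.0880 FPKM in K562, and was not called. CCND2-AS1, named in the same way and on the opposite strand, overlaps CCND2 by 2413 bases and was called higher in K562, at 0.00424 and 0.385 FPKM (q = 0.00264 in the authors' deposited table). LTO1, which shares 497 exonic bases with CCND1, was at 9.59 and 10.1 FPKM and was not called. Near CCND3, USP49 was called higher in MOLT4, at 36.0 and 5.18 FPKM. TAF8, which starts 0.156 kb from the CCND3 start on the other strand, was called higher in K562, at 12.7 FPKM in MOLT4 and at 22.6 FPKM in K562. TOMM6 was also called higher in K562, at 241 and 464 FPKM. BYSL, MED20, FRS3 and AL365205.1 were not called.

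CDK4 had 14 such neighbours. AGAP2 was called higher in MOLT4, at 18.9 and 0.719 FPKM, and OS9, CTDSP2 and B4GALNT1 were called higher in K562, at 90.1, 72.7 and 14.9 FPKM against 49.4, 35.4 and 2.61 FPKM in MOLT4. TSPAN31 overlaps CDK4 on the opposite strand and shares 1369 exonic bases with it, 43.2% of the exonic bases of CDK4. It was at 7.36 FPKM in MOLT4 and at 18.2 FPKM in K562 and did not pass the threshold (q = 0.187 in the authors' deposited table), and its level was well below that of CDK4 in both lines. MARCH9, which overlaps the CDK4 span without a shared exonic base, METTL1, CYP27B1, TSFM, EEF1AKMT3, ARHGEF25, AGAP2-AS1, AC025165.2 and AC025165.5 were not called either.

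Of the inhibitor genes, CDKN1C lay beside other genes of its imprinted cluster. SLC22A18 was called higher in K562, with 5.71 FPKM there and 1.14 FPKM in MOLT4 (q = 0.000203 in the authors' deposited table). PHLDA2 was at 0.0194 FPKM in MOLT4 and at 24.4 FPKM in K562 and did not pass the threshold (q = 0.310), and NAP1L4 was at 145 and 122 FPKM and was not called. FAF1, which starts 0.482 kb from CDKN2C on the other strand, was called higher in K562, with 230 FPKM there and 117 FPKM in MOLT4. Near CDKN1B, DDX47 was called higher in MOLT4, at 43.3 and 27.5 FPKM, and CREBL2, APOLD1 and AC008115.3 were not called. Near CDKN2D, KRI1 and S1PR5 were called higher in MOLT4, PDE4A and CDC37 were called higher in K562, and KEAP1, SLC44A2 and ATG4D were not called.

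**Figure D4:**
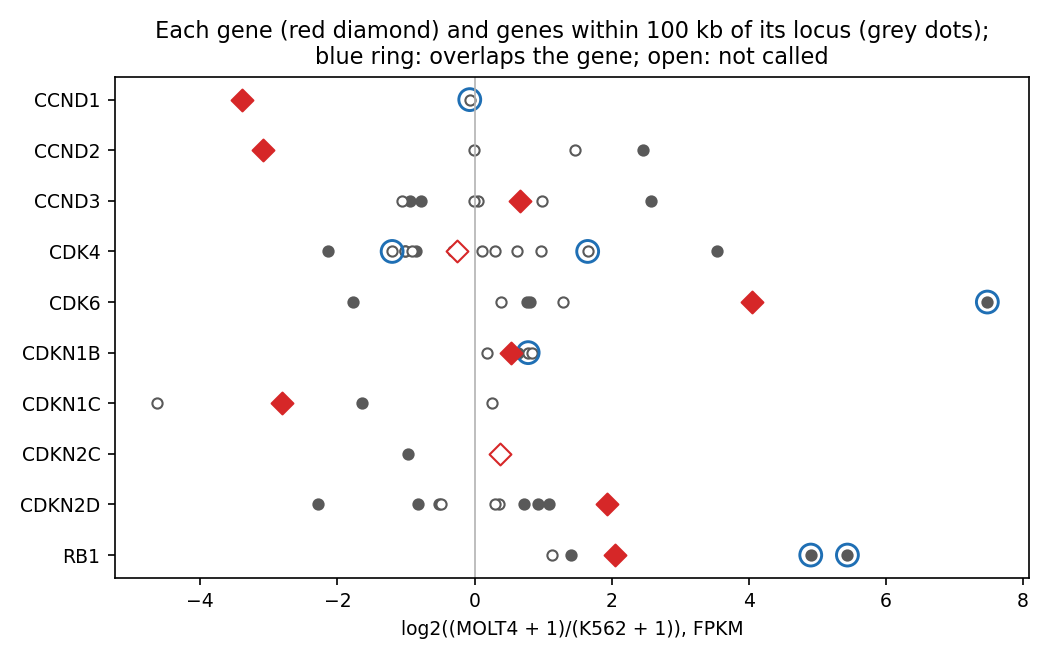
log2((MOLT4 + 1)/(K562 + 1)) of each of the 10 genes (red diamond) and of genes at 1 FPKM or more whose deposited locus lies within 100 kb of its own (grey dots). Open symbols mark genes not called, and a blue ring marks genes that overlap it. AC002454.1 at CDK6 and LPAR6 and RCBTB2 at RB1 lie farthest to the right, and CCND1 and CCND2 lie left of all their neighbours.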

How the data were processed

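The submitters' processing notes name Cuffdiff, Cufflinks 2.2.2, TopHat2 2.1.1 and CASAVA 1.8.2, with hg38 and GRCh38.p13 as genome builds. The deposited values are FPKM, with 1 value per gene and line. The deposited p-values and q-values are the authors' own, from Cuffdiff. The deposited q-values equal a Benjamini-Hochberg adjustment over 18870 tested genes within rounding, and no p is listed below 5e-05, a value that 4647 genes have. At this p the q is 0.000203, the smallest listed, so a q of 0.000203 is a floor and does not order the genes that have it. Neither the pooling of replicates nor the scaling between lines is stated in the sources used here, and q-values from a single library of each line would compare libraries only.

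Ratios, sums, ranks and medians were computed with Python 3.11.15, pandas 2.3.3 and numpy 2.4.6, with a pseudocount of 1 FPKM on the log2 scale, and the counting code was tested on simulated data. No test was run on the 1 value per line, and no SD or interval can be given. Positions are from GENCODE release 29 (96.5% of identifiers matched) and start regions from RefSeq. Genes were named by rule: all 10, the called gene of largest difference in each direction per pathway list, all genes of lists of up to 6, and neighbours at 1 FPKM or more, of which some are counted but not reported here by name. The 10 genes and all lists were chosen with earlier results of these data known.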

Additional observations from a re-analysis of the deposited data

How the results depend on the processing

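No paired analysis was possible because each line has 1 value per gene. For the same reason no replicate could be left out. With a minimum fold of 2, alone or after centring on the median ratio of the genes that reach 1 FPKM in each line, 3 genes were called higher in MOLT4 in place of 5, since CCND3 and CDKN1B fall under it. With 1 FPKM required in the lower line, 1 gene (CCND2) was called higher in K562 in place of 3, since CCND1 and CDKN1C are under 1 FPKM in MOLT4. A q of at most 0.01 gave 4 and 3.

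The median log2 ratio was 0.46 and 0.40 at pseudocounts of 0.1 and 5 FPKM, 0.56 with each line rescaled to a sum of 1000000, 0.47 after centring, and 0.59 over the members of the set that reach 1 FPKM in each line. Rescaling and centring gave 1.38 and 1.30 for the D cyclin sums, 2.61 and 2.46 for the kinase sums, and 1.52 and 1.44 for the inhibitor sums. Without the gene of highest mean level over the lines the ratio of sums was 0.0559 (no CCND3) and 0.835 (no CDK6), both reversed, and 1.57 (no CDKN2C). The genes then left are CCND1 and CCND2, both called higher in K562, and CDK4, which was not called. All 40 values of single genes under other pseudocounts and scalings kept their direction, but they could not have done otherwise. Adding the same amount to both levels cannot change which is higher. Each scaling changes all genes by a common factor, smaller than the fold of CDK4, the smallest of the set. The log2 ratio of CDK4 was -0.26, and became -0.15 after rescaling and -0.23 after centring. These values therefore do not test the directions. The depth is unknown, so levels under 1 FPKM (CCND1 and CDKN1C in MOLT4) have a counting error that cannot be stated.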

Other observations

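Other cyclin and CDK genes, picked by symbol after the values were seen, were mixed. Of 28 measured genes, 7 were called higher in MOLT4, 4 higher in K562 and 17 were not called by the authors' deposited table, with a median log2 ratio of 0.14. The share called was 39.3%, beside 46.0% of all tested genes at that level. CCNG2, an unconventional cyclin linked to cell cycle exit, was at 44.0 FPKM in MOLT4 and at 6.10 FPKM in K562, while its relative CCNG1, a p53 target, was at 63.7 and 143 FPKM. CCNG1 thus lay on the K562 side, as did CDKN1A. CCNI2 was at 4.36 and 0.0798 FPKM, CDK18 at 3.50 and 0.325 FPKM and CDK20 at 2.64 and 0.395 FPKM, all called higher in MOLT4. The other calls toward K562 were CCNB1 at 93.2 and 156 FPKM, CCNY at 47.7 and 78.3 FPKM and CDK16 at 30.0 and 52.1 FPKM. CCNB1 is a partner of the mitotic kinase CDK1, which was at 133 and 145 FPKM and was not called, and the other B-type partner CCNB2, at 74.6 and 90.5 FPKM, was not called either. CCNI, CCNJ and CCNL1 were the remaining calls toward MOLT4. The transcription kinases CDK8, CDK9, CDK12 and CDK13 lay between 17.1 and 35.8 FPKM in both lines, and none of them was called.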
